A study of Arabidopsis thaliana with 4 samples.

Results

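The nuclei described here carried transcripts of pericycle and stele parenchyma markers. They were chosen from their own RNA: a nucleus was taken when its RNA counts were over 1000 and under 25000, when at least 3 of 12 marker genes had 1 or more counts, and when the marker counts summed to at least 0.1% of its RNA counts. This rule selected 4981 of 23532 nuclei within the RNA limits, out of 24474 deposited barcodes. They are called marker nuclei below, and the remaining 18551 nuclei are called other nuclei. Because RNA counts chose the marker nuclei, the levels of the 12 markers and of other RNAs in them against other nuclei are given as a description, with no test.

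The nuclei came from 5-mm root tips of Arabidopsis thaliana Col-0 seedlings grown for 10 days on 1/2MS medium with 250 mM sorbitol (stress) or on 1/2MS medium alone (control), with 2 libraries in each group that the study calls biological replicates. Both groups carry the same wild-type background, and the control libraries are labelled WT. RNA and open chromatin were read from the same nucleus with the 10x Multiome assay, in which RNA molecules are counted per gene and transposition events per peak. Root tips were chopped together before nuclei were isolated, so the position of a nucleus along the root is not recorded.

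The pericycle is the outermost layer of the stele, just inside the endodermis, and it gives rise to lateral roots. The pericycle and the parenchyma around the xylem load mineral ions and amino acids into the xylem sap, and exporters such as PHO1 for phosphate and SKOR for potassium are well known there. Osmotic stress lowers the water potential outside the root, and abscisic acid, proline and aquaporins are known parts of the response.

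Marker nuclei numbered 2175 and 1907 in the stress libraries, against 209 and 690 in the control libraries. Their RNA counts summed to 11542018 and 10270434 in the stress libraries, against 801494 and 2729890 in the control libraries. The sum of control replicate 1 therefore rests on few nuclei. The median RNA count of marker nuclei was 4206 and 4224 under stress, against 3044 and 2903 in the control, while other nuclei had 3503 and 3402 under stress, against 3943 and 3299 in the control. In control replicate 1 the median peak count was 2358 in marker nuclei but 639 in other nuclei, where the other libraries had 3576 to 4004. Across pairs of libraries 326 barcodes of nuclei were shared, 13 of them between marker nuclei.

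PHO1, the phosphate exporter of the stele, was detected in 56.0% and 58.3% of marker nuclei in the stress libraries, against 78.0% and 73.6% in the control libraries. In other nuclei PHO1 was detected in 8.22% and 8.80% under stress, against 9.12% and 9.15% in the control. SKOR, the outward potassium channel that releases potassium toward the xylem, was seen in 11.6% and 12.01% of marker nuclei under stress, against 32.5% and 43.2% in the control. PHO1 and SKOR were thus more often detected in marker nuclei than in other nuclei in all 4 libraries, with lower shares under stress than in the control. MYB48, a transcription factor gene, was detected in 21.2% to 21.7% of marker nuclei in every library, against 0.533% to 1.48% of other nuclei. AHK1, a histidine kinase proposed as an osmosensor, was in 27.4% and 27.3% of marker nuclei under stress, against 13.4% and 16.5% in the control. UMAMIT11 and UMAMIT29 encode exporters of amino acids. UMAMIT11 was found in 41.7% to 57.4% of marker nuclei over the 4 libraries, and UMAMIT29 in 8.1% to 19.3%.

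Most counts that admitted a nucleus came from only a pair of genes. NPF7.3, which loads nitrate into the xylem, was detected in 94.7% and 93.7% of marker nuclei under stress, against 87.6% and 92.9% in the control. TIP2;3, an aquaporin of the vacuolar membrane, was detected in 93.6% and 93.7% under stress, against 75.1% and 71.6% in the control. Together TIP2;3 and NPF7.3 gave 77.5% and 77.0% of the marker counts in marker nuclei under stress, against 65.0% and 68.4% in the control. Both were also common outside: TIP2;3 was in 76.5% and 78.2% of other nuclei under stress, against 34.8% and 41.2% in the control. NPF7.3 was in 50.1% and 50.02% of other nuclei under stress, against 20.5% and 27.6% in the control. Among other nuclei that passed a list of 12 root hair cell genes, TIP2;3 was in 89.8% and 88.8% under stress, against 71.3% and 74.7% in the control, at median depths of 3903 and 3805 RNA counts, against 4755 and 4765. NPF7.3 was in fewer of these root hair-list nuclei, with 56.3% and 53.6% under stress, against 27.6% and 31.1% in the control. A single count of TIP2;3 or NPF7.3 was therefore not confined to marker nuclei. PHO1 was in 7.78% to 9.95% of the same root hair-list nuclei and SKOR in 0.647% to 2.797%. Root hair-list nuclei that passed the rule were not in this set, so these low shares are partly fixed by the rule. They cannot show how well PHO1 or SKOR separates the tissues.

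The remaining markers were sparse. SQS2, a squalene synthase homologue, had 5, 7, 0 and 3 counts in the marker nuclei of stress replicates 1 and 2 and control replicates 1 and 2. MES7, a methyl esterase, was in 4.8% to 7.2% of marker nuclei, and AT2G16385 in 5.75% to 10.05%. EXPB3, an expansin of the cell wall, was in 13.8% and 12.5% of marker nuclei under stress, against 2.9% and 2.5% in the control, where 3.93% and 2.87% of other nuclei also had it. EXPB3 thus did not mark these nuclei in the control libraries.

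**Figure D1:**
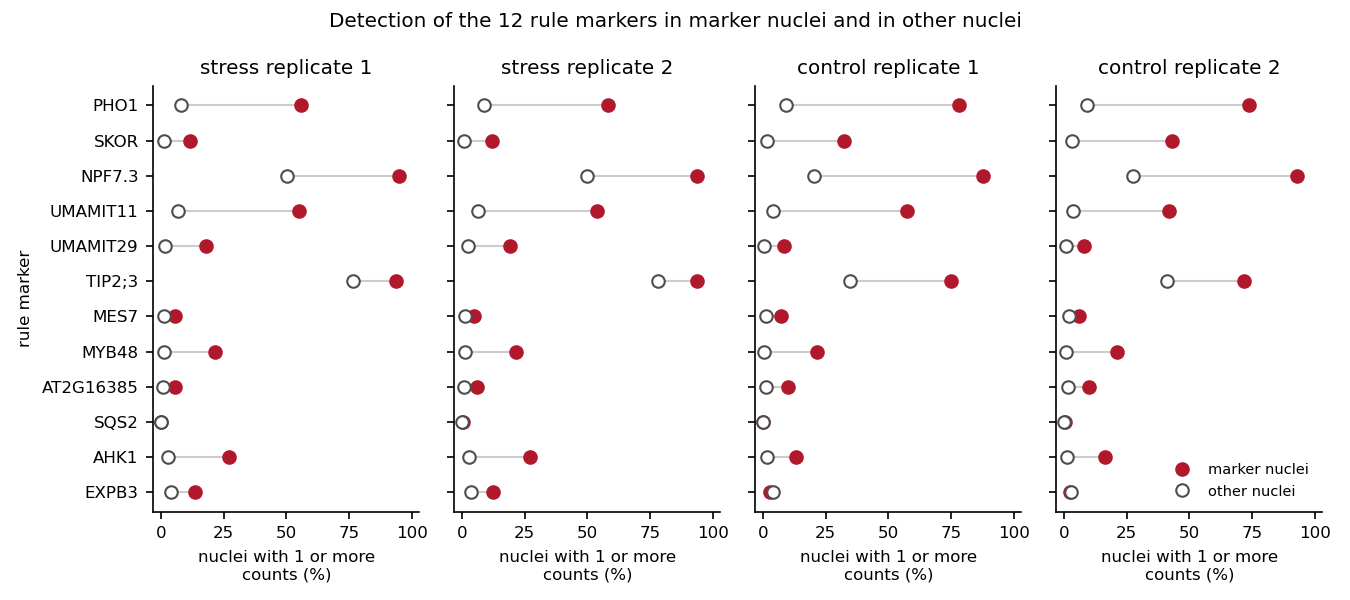
Percentage of nuclei with 1 or more counts of each of the 12 rule markers (horizontal axis), in marker nuclei (filled) and in other nuclei (open), with 1 panel for each library. PHO1, SKOR and MYB48 lie higher in marker nuclei than in other nuclei in all 4 panels, which is partly fixed by the rule. TIP2;3 and NPF7.3 lie higher there too, and they reach 76.5% and 50.1% of other nuclei in stress replicate 1.

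Genes of xylem loading that the rule did not use went with the markers. In a list of 27 transporters of the stele, nuclei holding at least 3 of them at 0.1% or more of their counts made up 59.9% and 60.8% of marker nuclei under stress, against 51.7% and 55.7% in the control. Among other nuclei the same list was passed by 25.7% and 25.4% under stress, against 7.19% and 8.03% in the control. Not every stele list did so. The list of 22 lateral root genes of the pericycle was passed by 3.31% and 3.25% of marker nuclei under stress, against 3.35% and 1.88% in the control, and by 3.47% and 2.96% of other nuclei under stress, against 3.16% and 3.14% in the control. The study's own 19 pericycle genes were passed by 43.1% and 40.1% of marker nuclei under stress, against 31.1% and 50.6% in the control, and by 12.6% and 12.1% of other nuclei under stress, against 7.79% and 10.2% in the control. Their summed level nevertheless differed little between the classes, with log2 ratios of marker nuclei to other nuclei of 0.08 and 0.05 under stress, against -0.21 and 0.38 in the control. Lists of other tissues went both ways. Dividing-cell genes were passed by 2.16% and 1.73% of marker nuclei under stress, against 0.478% and 0.870% in the control, below the 3.43% and 3.46% of other nuclei under stress and the 3.76% and 3.12% in the control. Root cap and stem cell niche lists were also passed less often by marker nuclei in each library, and the non-hair epidermis list in both control libraries. Casparian strip and root hair lists were passed more often by marker nuclei. The 12 Casparian strip genes of the endodermis were passed by 16.5% and 15.2% of marker nuclei under stress, against 14.4% and 6.52% in the control, and by 9.63% and 10.06% of other nuclei under stress, against 4.33% and 4.81% in the control. The 12 root hair cell genes were passed by 20.4% and 20.8% of marker nuclei under stress, against 17.7% and 10.14% in the control. In summed levels, the Casparian strip list had 855 and 811 CPM (RNA counts scaled to a total of 1000000) in marker nuclei under stress, against 1032 and 558 CPM in the control. In other nuclei it had 573 and 634 CPM under stress, against 267 and 390 CPM in the control. The root hair list had 1055 and 1145 CPM in marker nuclei under stress, against 1003 and 674 CPM in the control. By these shares the label of pericycle and stele parenchyma holds only in part, and the part of mixed nuclei in the results below was not tested except where they were left out.

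A stricter rule was therefore set beside the main one after the data had been seen. It used the other 10 markers, without TIP2;3 and NPF7.3, at the same limits, and it selected 436 and 410 nuclei under stress, against 64 and 191 in the control. Of these nuclei, 91.3% and 91.0% under stress, against 75.0% and 74.9% in the control, passed the list of xylem loading transporters. The study's pericycle genes were passed by 68.81% and 65.61% under stress, against 43.75% and 59.16% in the control. The lateral root list was passed by 2.52% and 1.22% under stress, against 1.56% and 2.62% in the control. These last shares were below those of other nuclei in each library. Root hair genes were passed by 10.09% and 12.68% under stress, against 6.25% and 5.76% in the control. Casparian strip genes were passed by 9.404% and 10.24% under stress, against 7.81% and 2.62% in the control. Of the marker nuclei of the main rule, 46.3% and 45.7% under stress, against 44.0% and 44.9% in the control, stood at the limit with exactly 3 markers. Just outside it, 1443 and 1243 nuclei under stress, against 144 and 442 in the control, had exactly 2 markers and a sufficient share of marker counts.

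The share of nuclei that passed the rule was higher under stress. Marker nuclei made up 28.3% and 29.3% of nuclei in the stress libraries (mean 28.8% ± 0.741, SD, n = 2), against 6.505% and 11.3% in the control libraries (mean 8.88% ± 3.36, SD, n = 2). The 2 groups did not overlap and their means differed 3.25-fold, but a two-sided exact permutation test of 2 against 2 libraries cannot go below p = 0.333, which was its value. The contrast shrank with the markers that were widespread under stress: without TIP2;3 the shares were 12.4% and 13.5% under stress, against 4.05% and 7.27% in the control. With the stricter rule they were 5.67% and 6.31% under stress, against 1.99% and 3.11% in the control, a ratio of 2.35. The share also varied with the depth of a nucleus: it was 17.0% and 16.6% between 1000 and 2000 RNA counts and 32.3% and 33.5% between 8000 and 25000 counts in the stress libraries, against 6.85% and 11.4% and then 1.92% and 5.62% in the control libraries. The deepest nuclei thus passed more often than the shallowest under stress and less often in the control. After each nucleus was thinned to 1000 RNA counts, 7.36% and 8.36% passed under stress, against 2.24% and 4.17% in the control, and with the 10 markers of the stricter rule 1.86% and 1.75% passed, against 0.903% and 0.995%. The stress libraries stayed above the control libraries in each of these counts, and the size of the difference depended on the rule. Since TIP2;3 itself was higher under stress in other nuclei, the share is not a count of cells of a type, and more such cells and more marker RNA per nucleus cannot be told apart.

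**Figure D2:**
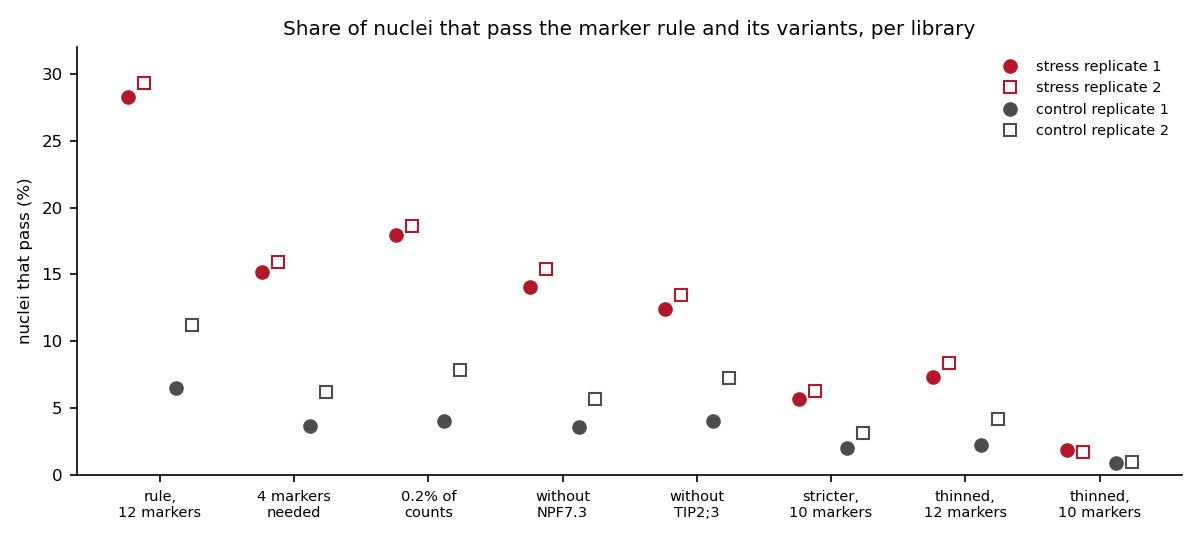
Percentage of nuclei (vertical axis) that pass the rule and 7 variants of it, with 1 point for each library, stress in red and control in grey. The stress libraries lie above the control libraries under every variant drawn, and the difference of the means is 19.9 percentage points under the rule with 12 markers and 0.859 points after thinning with 10 markers.

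Genes outside the rule that were higher in marker nuclei included further transporters. Genes were ranked by the lowest of their 4 within-library ratios, among those with a mean of at least 50 CPM in marker nuclei, and the first 15 included SLAH1, UMAMIT12, UMAMIT14, UMAMIT20 and FRD3. FRD3, which exports citrate that keeps iron mobile in the xylem, had 93.6 and 100.4 CPM in marker nuclei under stress, against 131 and 95.6 CPM in the control. In other nuclei FRD3 had 15.1 and 15.4 CPM under stress, against 6.22 and 8.85 CPM in the control. UMAMIT14, an amino acid exporter, had 85.1 and 89.5 CPM in marker nuclei under stress, against 80.1 and 81.2 CPM in the control. UMAMIT14 was thus about level over the libraries within marker nuclei. In other nuclei it had 15.6 and 15.1 CPM under stress, against 2.33 and 3.55 CPM in the control. Peroxidase-family genes AT1G49570 and AT2G41480, the terpene synthase gene TPS13 and its chromosome 4 neighbour CYP71A20 were also among the 15. The mean was taken over the 4 libraries, and SLAH1, AT1G49570, TPS13 and CYP71A20 reached 50 CPM only through the control libraries. The within-library log2 ratios of marker nuclei to other nuclei for these 15 genes ran 2.404 to 3.66 in the stress libraries, against 2.64 to 6.34 in the control libraries.

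Stress was then compared with control within marker nuclei, on RNA counts summed per library (edgeR quasi-likelihood test, Benjamini-Hochberg adjustment). Of 18320 genes tested, 793 (4.33%) were higher and 1246 (6.8%) lower under stress at an adjusted p under 0.05. Within the stricter rule 325 (2.42%) of 13422 genes were higher and 795 (5.92%) lower, of which 237 and 642 had also been called with the main rule. In other nuclei 865 (4.29%) of 20156 genes were higher and 309 (1.53%) lower. The counts of calls moved widely with single libraries: 98 genes were called higher without stress replicate 2 and 105 without stress replicate 1, against 2193 without control replicate 1. Lower calls numbered 172 and 191 without each stress replicate, against 3039 without control replicate 1. The stress pair was the closer of both pairs, with a standard deviation of log2 CPM of 0.1001 over 13588 genes, against 0.427 for the control pair.

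A lipid-transfer family gene, AT2G37870, rose the most of the genes named by the fixed rule. It had 42.5 and 44.8 CPM in marker nuclei under stress, against 1.29 and 1.17 CPM in the control (log2 change 5.17 ± 0.28, SE, edgeR adjusted p = 0.0014). AZI1, a lipid-transfer-like gene of systemic defence, had 46.3 and 42.8 CPM under stress, against 1.29 and 3.50 CPM in the control (log2 change 3.89). MRN1, which encodes marneral synthase of triterpene synthesis, had 53.0 and 66.8 CPM under stress, against 3.88 and 3.11 CPM in the control (log2 change 4.18). In all 3 genes the stress libraries lay far above the control libraries, although the choice of named genes already required the groups not to overlap. NIP5;1, a channel for boric acid uptake, was the most abundant of the 12 largest rises, with 663 and 682 CPM under stress, against 128 and 86.3 CPM in the control (log2 change 2.69 ± 0.19, edgeR adjusted p = 0.0019). SNRK2.8, a protein kinase of osmotic stress signalling, had 65.6 and 80.4 CPM under stress, against 22.0 and 8.94 CPM in the control (log2 change 2.56). RBCS1A and RCA, which encode the small subunit of the carbon-fixing enzyme and its activase, rose by 2.998 and 2.75 on the log2 scale. The other 5 genes of the 12, CYP702A5, AT4G04745, AT4G16260, PRF4 and AT1G01320, rose by 2.52 to 3.40. All 12 were also called in other nuclei, with log2 changes of 2.18 to 4.97, and none of the 12 was called in the test of the difference between the classes (the interaction), which does not show that the changes were equal.

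Of the 12 largest falls, 4 (TPS13, CYP71A20, AT1G49570 and SLAH1) were also among the 15 genes most above other nuclei. These 4 entered the 15 only through their control levels, and a large fall needs a high control level too. The overlap is therefore partly fixed by the choice of genes. TPS13 had 3.25 and 3.90 CPM in marker nuclei under stress, against 153 and 213 CPM in the control (log2 change -5.70 ± 0.24, edgeR adjusted p = 0.0014). CYP71A20, at chr4:7750305-7753210 beside TPS13 at chr4:7742871-7746394, had 7.83 and 7.53 CPM under stress, against 67.2 and 166 CPM in the control (log2 change -4.04). AT1G49570, annotated as a peroxidase, had 6.58 and 7.99 CPM under stress, against 251 and 105 CPM in the control (log2 change -4.52). The stress values of all 3 genes lay below both control values, which the choice of named genes required. SLAH1, which helps load chloride into the xylem, had 8.50 and 10.4 CPM under stress, against 62.0 and 148 CPM in the control (log2 change -3.62 ± 0.35, edgeR adjusted p = 0.0031). JAZ10, a repressor of jasmonate signalling, had 30.3 and 29.1 CPM under stress, against 177 and 504 CPM in the control (log2 change -3.55). NAC3, a stress and senescence transcription factor, fell by 5.44 on the log2 scale, but its control values of 11.6 and 68.8 CPM differed widely from each other. The other 6 genes, PP2-B14, CYP706A2, AT3G22275, DAR3, AT2G17880 and GGPS6, had log2 changes of -4.99 to -3.67. All 24 named genes were called again without each library in turn and with DESeq2, although PRF4 was not called and NAC3 not tested under the stricter rule.

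**Figure D3:**
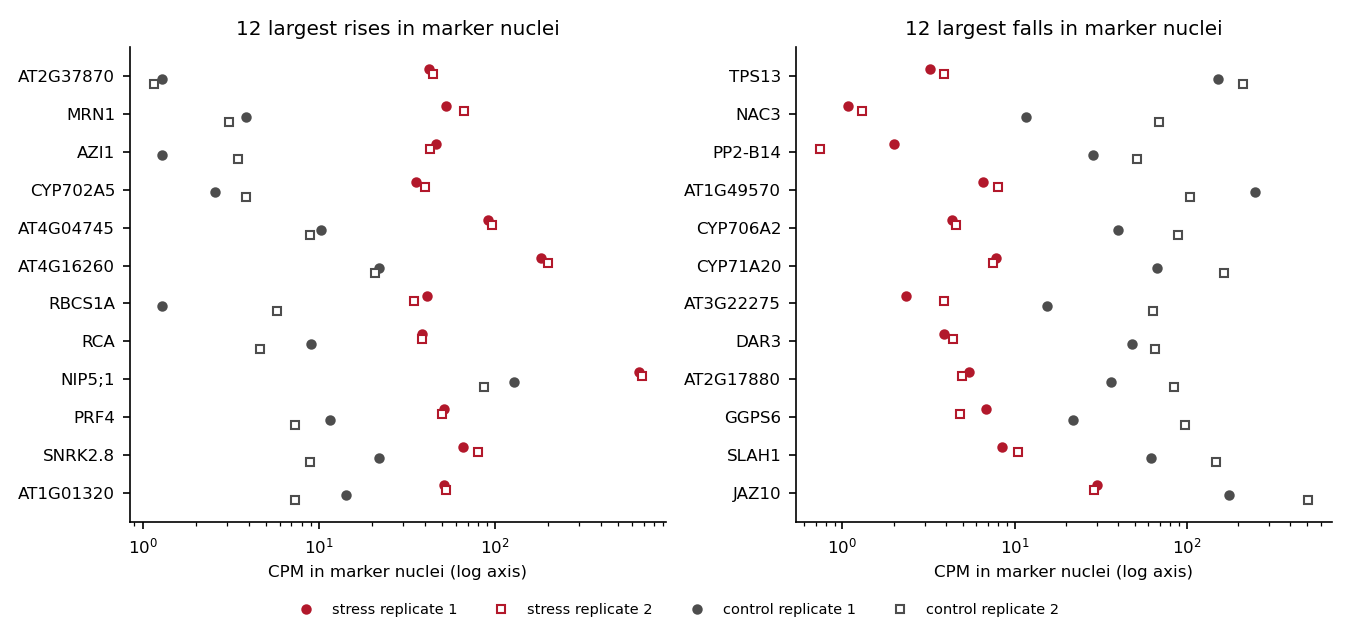
CPM in marker nuclei (horizontal log axis) of the 12 genes with the largest rise (left panel) and the 12 with the largest fall (right panel) under stress, 1 point for each library, stress in red and control in grey. The stress points of each gene lie together on 1 side of both control points, a condition for naming the genes.

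The 12 markers themselves moved in both directions and are given without a test. PHO1 had 182 and 203 CPM in marker nuclei under stress, against 582 and 419 CPM in the control. SKOR had 27.9 and 28.5 CPM under stress, against 160 and 225 CPM in the control, and it was also lower within the stricter rule, at 105 and 102.99 CPM under stress, against 495 and 592 CPM in the control. NPF7.3 had 1262 and 1244 CPM under stress, against 1731 and 1727 CPM in the control. For PHO1, SKOR and NPF7.3 both stress libraries lay below both control libraries, while the reverse held for TIP2;3, with 996 and 1026 CPM under stress, against 658 and 565 CPM in the control. AHK1 had 74.7 and 72.3 CPM under stress, against 46.5 and 50.9 CPM in the control. Since the rule admits a nucleus on these genes, a change in which nuclei pass and a change of level per nucleus cannot be told apart.

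Among the 27 transporters of xylem loading and the stele, 24 were tested in marker nuclei, and 4 rose, 3 fell and 17 did not pass, with a median log2 change of 0.19 against 0.02 over all genes, of which 4.33% rose and 6.8% fell. HKT1, which retrieves sodium from the xylem sap, had 23.9 and 27.6 CPM under stress, against 9.05 and 8.94 CPM in the control (log2 change 1.52 ± 0.23, edgeR adjusted p = 0.010). BOR1, the exporter that loads boron into the xylem, had 60.1 and 64.1 CPM under stress, against 28.4 and 31.9 CPM in the control (log2 change 1.01). SULTR2;2, a sulfate transporter, and AT3G45680 rose by 1.82 and 0.95 on the log2 scale. HMA4, the zinc pump of xylem loading, had 264 and 268 CPM under stress, against 478 and 511 CPM in the control (log2 change -0.90 ± 0.11, edgeR adjusted p = 0.0058). UMAMIT18 had 180 and 191 CPM under stress, against 264 and 327 CPM in the control (log2 change -0.68), and SLAH1 was the third that fell. The falls of HMA4 and UMAMIT18 were not called under the stricter rule. UMAMIT18 also lost its call with at least 4 markers, with TIP2;3 left out and with equal numbers of nuclei. The part in these falls of a change in which nuclei pass the rule was not tested. SLAH3, NPF2.9, ZIP2 and FRD3, which did not pass, had log2 changes of -0.49, 0.12, 0.75 and -0.19. Without either stress replicate the list had no rise and 1 fall, and without control replicate 1 it had 8 rises and 6 falls. Under the stricter rule the list had 6 rises and 1 fall among 22 tested, with a median of 0.56.

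Part of the same transporters differed between the classes of nuclei. In the test of the interaction, 9 of 26 transporters had a lower stress effect in marker nuclei than in other nuclei, and 0 had a higher one. Of all 20104 genes tested, 561 (2.79%) were lower and 104 (0.517%) higher. Under the stricter rule 6 of 25 transporters were lower and 0 higher, beside 3.01% lower over all genes. Other vascular lists also had negative medians, with few calls. Lower interactions were called for 2 of 8 procambium, 2 of 18 xylem and 0 of 14 phloem genes. The study's stele genes had 1 lower and 1 higher of 7. Negative medians were not limited to vascular lists: the Casparian strip list had -0.38 and the suberin list 0.38, with 0 calls each. Median interactions were -0.64 for the transporters, -0.93 for procambium, -0.91 for xylem, -0.58 for phloem and -0.78 for the study's stele genes. The median was 0.05 over all genes, -0.01 for the study's pericycle list and 0.29 for the lateral root list. UMAMIT14 had a log2 change of 0.11 in marker nuclei but of 2.36 in other nuclei (interaction -2.15 ± 0.18, edgeR adjusted p = 6.4e-05). UMAMIT18 had -0.68 in marker nuclei and 0.91 in other nuclei (interaction -1.56), and UMAMIT28 had 0.43 and 1.93 (interaction -1.37). SLAH3, which loads chloride and nitrate, had -0.49 in marker nuclei and 0.92 in other nuclei (interaction -1.32). These 4 genes kept their call in all 16 alternatives run, including the stricter rule and each library left out. HMA4 (-1.32) lost its call without stress replicate 2, and ABCG14, which exports cytokinin from the root (-0.97), lost it without either stress replicate and with equal numbers of nuclei. FRD3 (-1.05) lost its call in 3 of the alternatives and BOR1 (-0.74) in 10, and ABCG25, an exporter of abscisic acid (-1.53), was called in 2 of the 4 fits that left out a library. Over single libraries left out the list had 5 to 14 lower and 0 or 1 higher differences. For each of these 9 genes both stress libraries lay above both control libraries in other nuclei, at levels below those of marker nuclei. The share of other nuclei with TIP2;3 and NPF7.3 was higher under stress too, and the part in these differences of stele nuclei that missed the rule was not tested.

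**Figure D4:**
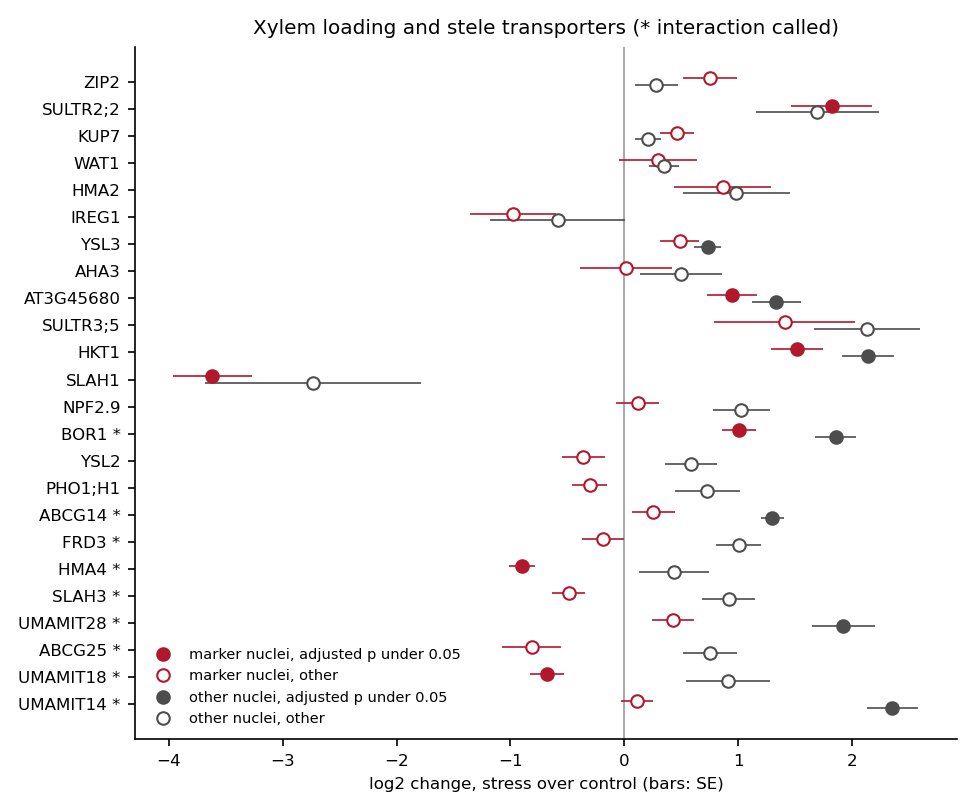
Log2 change of stress over control (horizontal axis, bars show SE) of 24 xylem loading and stele transporters in marker nuclei (red) and in other nuclei (grey), filled where the adjusted p was under 0.05. The genes run from the highest to the lowest interaction, and the 9 with a star, from BOR1 to UMAMIT14, had a lower stress effect in marker nuclei than in other nuclei.

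Over all genes, MYB59, known as an activator of NPF7.3, had the interaction with the smallest adjusted p of the 10 named by the fixed rule. MYB59 had 425 and 463 CPM in marker nuclei under stress, against 439 and 632 CPM in the control, while other nuclei had 174 and 191 CPM under stress, against 27.9 and 58.1 CPM in the control (interaction -2.36 ± 0.19, edgeR adjusted p = 4.0e-05). The groups overlapped in marker nuclei, while in other nuclei both stress libraries lay above both control libraries (log2 change 2.08, which did not pass). The difference of AT1G49570 had the same sign (-3.16), with a log2 change of -4.52 in marker nuclei and of -1.31 in other nuclei, which did not pass. ENODL9, an early nodulin-like gene, had 4.83 and 2.88 CPM in marker nuclei under stress, against 133 and 17.5 CPM in the control (interaction -3.84 ± 0.82, edgeR adjusted p = 0.022), with most of the control level in replicate 1. AT1G29520 and AT5G18970, both annotated as AWPM-19-like proteins, had the same pattern, with 159 and 65.9 CPM in marker nuclei of control replicate 1, against 30.7 and 19.0 CPM in control replicate 2. Of the 5 genes with the highest interaction, ENODL15 had 35.4 and 35.8 CPM in marker nuclei under stress, against 15.5 and 23.3 CPM in the control, and 61.3 and 62.0 CPM in other nuclei under stress, against 129 and 96.2 CPM in the control (interaction 1.53 ± 0.22, edgeR adjusted p = 0.0019). ENODL15 and ENODL14 (1.46) were below the level of other nuclei in every library, by less under stress. Neither was called under the stricter rule, where the interaction gave 377 (1.92%) higher and 592 (3.01%) lower genes of 19639, sharing 35 and 365 with the main rule. Without each stress replicate the higher calls numbered 9 and 10, and without each control replicate 852 and 1523, against 184 and 213 lower calls without a stress replicate and 1525 and 1798 without a control replicate.

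Jasmonate genes were the list with the most calls in marker nuclei. Of 16 genes, 14 were tested and 10 fell, with a median log2 change of -1.94, beside 6.8% lower over all genes. In other nuclei none of 14 was called in either direction at a median of -1.70, beside 1.53% lower over all genes. JAZ5, a repressor of jasmonate signalling, had 14.7 and 12.6 CPM under stress, against 60.7 and 135 CPM in the control (log2 change -2.97 ± 0.31, edgeR adjusted p = 0.0037). LOX4, a lipoxygenase of jasmonate synthesis, had 55.6 and 58.0 CPM under stress, against 155 and 144 CPM in the control (log2 change -1.39). OPR3, a later enzyme of the same pathway, had 96.2 and 100.96 CPM under stress, against 195 and 594 CPM in the control (log2 change -2.03). Control replicate 2 was above control replicate 1 for JAZ5, JAZ10, OPR3 and CYP94B1, also in other nuclei, where OPR3 had 92.4 and 102.5 CPM under stress, against 119.6 and 465 CPM in the control. AOC1, another synthesis enzyme, had 2.92 and 2.23 CPM in marker nuclei under stress, against 1.29 and 85.1 CPM in the control, so that its fall of 4.54 on the log2 scale came from control replicate 2 alone. Without that library 9 of 15 tested genes fell and the median was -0.81, and without either stress replicate 3 fell. JAZ10, JAZ5 and CYP94B1, an enzyme of jasmonate breakdown, were called without each library in turn. LOX3 and LOX4 also fell more in marker nuclei than in other nuclei (interactions -0.96 and -0.81), but both lost that call without either stress replicate, and LOX3 also with at least 4 markers.

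Genes of two-component signalling rose in part. Of 24 such genes, 20 were tested, 5 rose and 0 fell, with a median of 0.18, beside 4.33% higher and 6.8% lower and a median of 0.02 over all genes. WOL, a cytokinin receptor of the stele, had 43.7 and 47.6 CPM in marker nuclei under stress, against 16.8 and 19.8 CPM in the control (log2 change 1.26 ± 0.16, edgeR adjusted p = 0.0061). The response regulators ARR4, ARR8 and ARR9, which damp the cytokinin response, rose by 0.85, 1.35 and 1.08, and the phosphotransfer protein gene AHP1 rose by 0.65. ARR4 and AHP1 were not called under the stricter rule. AHP1 also lost its call with at least 4 markers, the limit of 0.2%, TIP2;3 left out, equal numbers of nuclei, the replicate block and DESeq2. The receptor genes AHK2 and AHK3 had 0.20 and 0.36 and did not pass. None of the 5 was called without either stress replicate. WOL was the only one of them with a called interaction, at 0.81, and it lost that call in 8 of 16 alternatives.

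Aquaporins were highly transcribed in both classes. Of 18 aquaporin genes, 17 were tested in marker nuclei, 4 rose and 0 fell, with a median of 0.17, beside 4.33% higher and 6.8% lower over all genes. TIP2;2, of the vacuolar membrane, had 1546 and 1686 CPM in marker nuclei under stress, against 973 and 748 CPM in the control (log2 change 0.91 ± 0.14, edgeR adjusted p = 0.010). PIP1A and PIP1;5, of the plasma membrane, both rose by 0.59, and TIP4;1 rose by 0.62. With DESeq2, PIP1A, PIP1;5 and TIP4;1 lost their calls and TIP2;2 kept its call. PIP1;5 and TIP4;1 also lost their calls with equal numbers of nuclei, and TIP4;1 under the stricter rule. GAMMA-TIP, PIP2A and PIP1B, which did not pass, had log2 changes of 0.17, 0.38 and 0.36. None of the 4 was called without either stress replicate, while without control replicate 1 the list had 10 rises and 2 falls. RD28, a plasma membrane aquaporin also known as PIP2;3, had 735 and 726 CPM in marker nuclei under stress, against 828 and 726 CPM in the control. In other nuclei RD28 had 407 and 415 CPM under stress, against 143 and 210 CPM in the control (interaction -1.28, which was not called without either stress replicate).

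Of 27 genes of abscisic acid and osmotic signalling, 23 were tested, and 3 rose and 1 fell, beside 4.33% higher and 6.8% lower over all genes, so that the single fall is no more than the share over all genes. P5CS1, the first enzyme of proline synthesis, had 69.7 and 66.1 CPM in marker nuclei under stress, against 25.8 and 28.8 CPM in the control (log2 change 1.28 ± 0.15, edgeR adjusted p = 0.0048). HB-7, a homeodomain gene known to respond to abscisic acid, had 44.2 and 47.1 CPM under stress, against 12.9 and 11.7 CPM in the control (log2 change 1.93). SNRK2.8 was the third that rose. NCED3, which makes the precursor of abscisic acid, had 14.3 and 16.2 CPM under stress, against 27.1 and 52.5 CPM in the control (log2 change -1.58). HB-7 and SNRK2.8 were called without each library in turn, while P5CS1 and NCED3 were not called without either stress replicate, nor NCED3 without control replicate 2. P5CS1 and HB-7 had log2 changes of 1.37 and 2.03 in other nuclei and no called interaction.

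Of 22 genes of lateral root founding in the pericycle, 18 were tested, 1 rose and 0 fell, with a median of -0.03. These counts are near the 4.33% higher and 6.8% lower over all genes. MAKR4, which acts in lateral root founder cells, had 16.8 and 12.4 CPM under stress, against 3.88 and 5.44 CPM in the control (log2 change 1.53 ± 0.38, edgeR adjusted p = 0.049), a call lost without each stress replicate, without control replicate 2, with DESeq2 or its size factors, without organelle genes and with equal numbers of nuclei. LBD16, which starts the division of founder cells, had 18.1 and 18.3 CPM under stress, against 12.9 and 22.2 CPM in the control, so its groups overlapped. IAA28, ARF7 and PLT3, which did not pass, had log2 changes of -0.20, -0.12 and -0.29. Of the lists for other tissues, suberin (10 tested), non-hair epidermis (12), root cap (7) and stem cell niche genes (8) had 0 calls in either direction. Other lists of other tissues did have calls: cortex genes had 2 rises of 12 (AT1G62510 and IREG2) at a median of 0.70, root hair genes 2 rises of 12 (EXPA7 and GH9C1) at a median of 0.24, and dividing-cell genes 2 rises of 10 (KN and AUR2) at a median of 0.36. Phloem genes had 2 rises (PP2-A1 and SWEET11) and 2 falls (NEN4 and NAKR1) of 12, and Casparian strip genes had 1 rise of 12 (PER9). EXPA7 and GH9C1 lost their calls when mixed nuclei were left out, and the part of nuclei of other tissues in the remaining calls was not tested. Procambium genes had 0 rises and 2 falls of 8, namely NPF4.3 (-1.55) and AT1G61660 (-1.58), and xylem genes had 1 rise of 15.

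Open chromatin gave a measure that the rule did not use. Peaks had been called per library, and the 18340 merged regions found in all 4 libraries were compared between marker nuclei and other nuclei within libraries (edgeR quasi-likelihood test with library as a block). At an adjusted p under 0.05, 217 regions (1.18%) were more accessible in marker nuclei and 117 (0.638%) less. With the stricter rule 644 (3.51%) were higher and 646 (3.52%) lower, of which 202 and 110 were called with both rules. These counts leaned on the control libraries: without control replicate 2 there were 6 higher and 0 lower regions, and without control replicate 1 there were 52 and 5. When the limits that the study set on peak counts were required too, which 41.1% of the marker nuclei of control replicate 1 but 10.3% to 12.5% of the others failed, 131 and 26 were called.

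Of the higher regions 59 lay at gene starts. The 3 with the largest differences were each called without every library in turn and with the stricter rule. The promoter sequence of each is shown because it lies inside the region that was more open in marker nuclei, together with AHK1, a rule marker whose start lay in a tested region. Each line holds the 300 bases upstream of the annotated start (RefSeq, TAIR10.1), 5′ to 3′ on the strand of the gene, with capitals at matches on either strand of ACGTG (the core of abscisic acid response elements), TTGAC (the core of the W-box) or GNATATNC (bound by the phosphate starvation regulator PHR1). The windows are chr4:6218019-6218318 (+ strand) for AT4G09890, chr5:25499078-25499377 (+) for AT5G63710, chr2:3514368-3514667 (+) for ABCC13 and chr2:7748503-7748802 (- strand) for AHK1.
AT4G09890: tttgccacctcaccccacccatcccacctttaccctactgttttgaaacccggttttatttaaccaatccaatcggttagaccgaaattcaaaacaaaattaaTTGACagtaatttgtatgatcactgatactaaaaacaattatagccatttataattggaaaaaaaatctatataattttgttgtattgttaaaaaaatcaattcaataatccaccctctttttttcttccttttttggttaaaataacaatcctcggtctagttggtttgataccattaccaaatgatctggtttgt
AT5G63710: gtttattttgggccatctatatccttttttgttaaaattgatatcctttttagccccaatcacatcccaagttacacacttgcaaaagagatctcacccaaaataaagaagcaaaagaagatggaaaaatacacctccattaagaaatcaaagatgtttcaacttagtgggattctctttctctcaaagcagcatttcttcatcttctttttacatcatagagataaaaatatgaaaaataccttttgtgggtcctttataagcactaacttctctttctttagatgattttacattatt
ABCC13: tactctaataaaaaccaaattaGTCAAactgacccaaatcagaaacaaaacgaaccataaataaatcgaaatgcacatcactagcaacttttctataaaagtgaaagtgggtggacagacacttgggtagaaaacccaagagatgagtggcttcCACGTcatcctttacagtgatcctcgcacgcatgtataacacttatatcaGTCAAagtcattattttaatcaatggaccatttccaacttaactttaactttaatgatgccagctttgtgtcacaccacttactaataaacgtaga
AHK1: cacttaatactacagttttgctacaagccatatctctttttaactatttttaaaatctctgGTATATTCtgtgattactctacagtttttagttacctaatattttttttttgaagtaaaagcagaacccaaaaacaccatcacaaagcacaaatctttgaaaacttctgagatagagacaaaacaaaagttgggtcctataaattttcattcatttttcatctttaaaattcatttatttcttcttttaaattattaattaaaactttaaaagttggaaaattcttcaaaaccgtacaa
The AT4G09890 window holds 1 TTGAC match, the AT5G63710 window none, the ABCC13 window 1 ACGTG and 2 TTGAC matches, and the AHK1 window 1 GNATATNC match. Among the 32546 nuclear genes, 24.5% had ACGTG, 49.9% TTGAC and 6.44% GNATATNC in the same window, and among the 14488 genes with a start in a tested region 28.6%, 50.8% and 6.12% did. Among the 58 genes at higher regions with such a window, 31.0% had ACGTG, 29 of the 58 had TTGAC and 6.90% had GNATATNC.

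The region at AT4G09890, a gene annotated with a DUF3511 domain (chr4:6217056-6218586), had 24.1 and 18.5 CPM of peak counts in marker nuclei under stress, against 73.8 and 63.2 in the control. In other nuclei it had 11.1 and 10.6 under stress, against 32.4 and 28.2 in the control (log2 difference of marker nuclei over other nuclei 1.07 ± 0.12, SE, edgeR adjusted p = 0.00011). In every library marker nuclei were above other nuclei, and both classes were lower under stress. RNA of AT4G09890 had 37.5 and 34.6 CPM in marker nuclei under stress, against 29.9 and 24.5 CPM in the control, above the 19.9 and 20.01 CPM under stress and 10.2 and 11.4 CPM in the control of other nuclei. The region at AT5G63710, a leucine-rich repeat kinase gene (chr5:25498776-25499625), had 24.4 and 21.7 CPM in marker nuclei under stress, against 50.9 and 42.4 in the control. In other nuclei it had 13.2 and 12.5 under stress, against 15.1 and 20.04 in the control (log2 difference 1.04 ± 0.14, edgeR adjusted p = 0.00066). The region at ABCC13, an ABC transporter gene (chr2:3514054-3514982), had 28.6 and 24.9 CPM in marker nuclei under stress, against 45.8 and 41.3 in the control, and 13.3 and 13.0 in other nuclei under stress, against 18.9 and 21.6 in the control (log2 difference 1.04 ± 0.13). Regions at CO and at PAD3, a camalexin synthesis gene, had log2 differences of 0.83 and 0.77 and lost their calls without control replicate 2. PAD3 RNA was also higher in marker nuclei, with 5.37 and 7.01 CPM under stress and 15.0 and 16.1 CPM in the control, whereas CO RNA was near 1 CPM or below in both classes.

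Only 2 of the 12 rule markers, AHK1 and SQS2, had a start in a tested region. At AHK1 (chr2:7748275-7749249) marker nuclei had 21.9 and 12.4 CPM under stress, against 12.7 and 10.98 in the control, and other nuclei had 15.6 and 10.3 under stress, against 7.85 and 6.69 in the control. Marker nuclei were higher in each library, but the log2 difference of 0.47 ± 0.16 did not pass (edgeR adjusted p = 0.14). With the stricter rule it was 1.32 ± 0.25 (edgeR adjusted p = 0.00042). At SQS2 the difference was 0.22 (edgeR adjusted p = 0.475). Between 1000 bp before and 500 bp after the start, TIP2;3 and SKOR had called peaks in all 4 libraries as well. TIP2;3 had a log2 ratio of marker nuclei to other nuclei of 0.04 and 0.08 under stress, against -0.11 and -0.02 in the control, and SKOR had 0.18 and 0.08 under stress, against 0.39 and 0.26 in the control. MES7 had a called peak there in 2 libraries and the other 7 markers had none.

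Genes at the starts of the higher regions were also higher in RNA as a description. Of 31 such genes with at least 5 CPM, 30 had more RNA in marker nuclei, with a median log2 ratio of 1.63, against 0.078 and 57.7% above 0 over 15210 genes. The lower regions were of another kind: 60 of 117 lay between 3.2 and 3.6 Mb of chromosome 2, where 120 regions were tested and where the reference holds a known insertion of mitochondrial DNA. That stretch took 2.00% and 1.85% of peak counts in marker nuclei under stress, against 4.61% and 1.39% in the control, and 2.21% and 2.11% in other nuclei under stress, against 8.17% and 2.395% in the control. None of its regions was called lower when the limits on peak counts were required, while 106 of the 120 were called lower with the stricter rule. ABCC13 lies within the same stretch, where its region was the only one called higher. Outside it, the region at NOGC1 and AT1G08533 had the largest fall at a gene start among those named (log2 difference -0.59 ± 0.12, edgeR adjusted p = 0.010), a call lost without control replicate 2 and under the stricter rule.

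**Figure D5:**
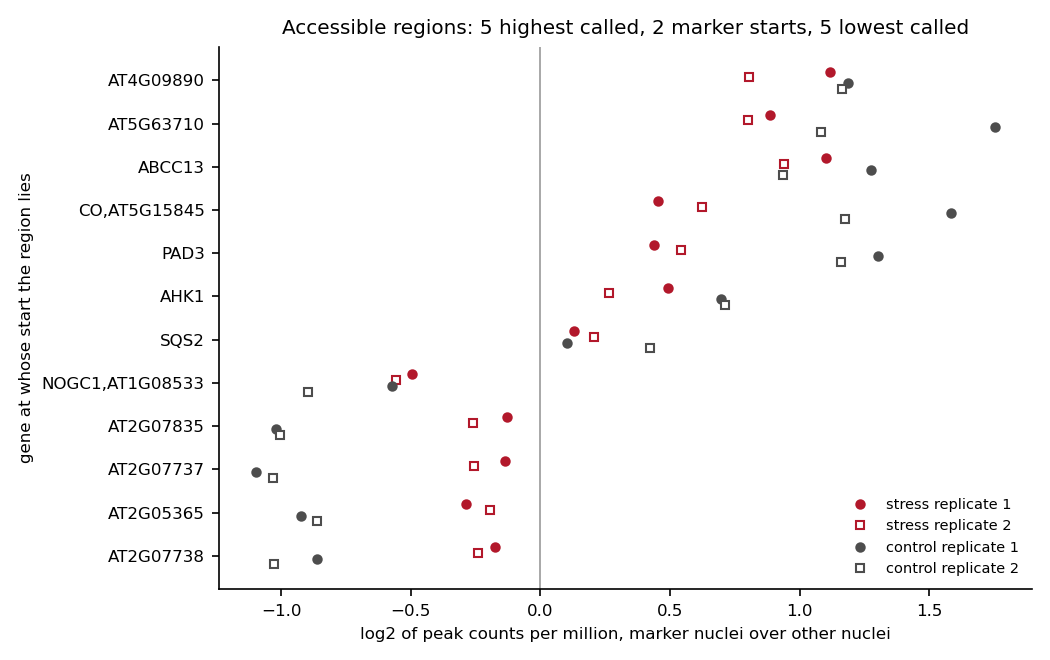
Log2 of scaled peak counts (CPM) in marker nuclei over other nuclei (horizontal axis) for the 5 regions at gene starts with the largest called rise, the starts of AHK1 and SQS2, and the 5 with the largest called fall, 1 point for each library, stress in red and control in grey. All 4 libraries lie above 0 for AT4G09890, AT5G63710 and ABCC13, while the 4 regions of the chromosome 2 stretch at the bottom are near 0 in the stress libraries and near -1 in the control libraries.

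Between stress and control, 0 of the 18340 regions were called in either direction within marker nuclei (edgeR, 0.0%), although 1211 and 1258 had an unadjusted p under 0.05. DESeq2 size factors in the same test gave 1 and 1, and required peak count limits gave 29 and 22. Without control replicate 1 the test called 380 higher and 288 lower regions, and without control replicate 2 it called 121 and 234. The absence of calls in all 4 libraries therefore does not show that accessibility was the same. The region at AT4G09890 had a log2 change of -1.64 ± 0.19 under stress (edgeR adjusted p = 0.060).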

How the data were processed

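Deposited RNA and peak counts were raw; per the file headers the authors made these counts with Cell Ranger ARC 2.0.2 for each library alone on TAIR10, and the submitters' processing notes also name Seurat 4.3.0. Counts per gene are molecules, and peak counts are transposition events in peaks called in that library. Barcodes had been called as cells before deposit.

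The rule for marker nuclei was applied to raw counts, and the counts were summed per library. Sums were tested with edgeR 4.0.16 (quasi-likelihood test, TMM scaling, filterByExpr, Benjamini-Hochberg adjustment over all genes or regions, threshold 0.05) in R 4.3.3, with group only for stress against control and library as a block for the classes and for the interaction. CPM are scaled by TMM except in summed lists and in the RNA levels given beside regions. The 15 genes higher in marker nuclei were chosen and their ratios taken on CPM without TMM scaling. SE is the log2 change divided by the square root of F. Peaks were merged across libraries with bedtools 2.31.1, and regions with a peak in all 4 libraries were kept. With 2 libraries a group, p-values measure the spread between these libraries.

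Named genes were those with the 12 largest rises and falls (5 for the interaction) with an adjusted p under 0.05, at least 20 CPM in marker nuclei, stress libraries on 1 side of both control libraries, and no rule marker; for the interaction this side was read on the difference of log2 (CPM + 1) between the classes within a library. Genes of fixed lists were named where called, with up to 4 others by level. Regions were named as the 5 largest at gene starts in each direction with at least 20 CPM of peak counts. The marker nuclei and the gene lists were chosen with earlier results of these data known.

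Alternatives were other limits of the rule, each marker left out, thinning to 1000 counts, mixed nuclei or doublets left out, equal numbers of nuclei (209 a library), DESeq2 1.42.0, its size factors, no filter, no organelle genes, peak count limits of 1000 and 100000, and each library left out. Scrublet (scanpy 1.11.5) marked at most 0.052% of nuclei by its own threshold, so it had not worked, and the highest scores at 0.8% per 1000 nuclei were left out in that alternative. The tests were also run on simulated counts with the same spread in every library, which does not cover the wider spread of the real control pair. Replicate numbers of stress and control did not pair the libraries (r = 0.043). The median log2 change over all genes was 0.02 with TMM and 0.14 with library sums alone.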

Additional observations from a re-analysis of the deposited data

Results flagged for a closer look

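The stress effect differed between marker nuclei and other nuclei by the interaction test for 10 genes named by the fixed rule. The log2 difference was 1.53 for ENODL15, 1.46 for ENODL14, 1.26 for AT3G59765, 1.12 for AT1G04040 and 1.12 for AT1G07400. It was -3.84 for ENODL9, -3.16 for AT1G49570, -2.63 for AT1G29520, -2.46 for AT5G18970 and -2.36 for MYB59. MYB59 was the only one called in all 16 alternatives. AT1G49570 was called in 15 and lost its call when the limits on peak counts were required. AT1G07400, a small heat-shock gene, had 142 CPM in marker nuclei of control replicate 1 and 9.33 CPM in control replicate 2, and it was called in 12 alternatives, as were AT1G04040 and AT1G29520. AT3G59765 was called in 11, ENODL15 in 14, and ENODL14, ENODL9 and AT5G18970 in 13 each.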

How the results depend on the processing

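Counts of calls moved more than single genes did. For stress against control RNA in marker nuclei (793 higher, 1246 lower) the stricter rule gave 325 and 795, equal numbers of nuclei 228 and 515, no filter 1275 higher, DESeq2 344 higher, and single libraries left out 98 to 2193 higher and 172 to 3039 lower. For the interaction (104 higher, 561 lower) peak count limits gave 29 and 318, at least 4 markers 27 higher, the limit of 0.2% 472 and 1377, TIP2;3 left out 56 higher, mixed nuclei left out 45 higher, the stricter rule 377 higher, equal numbers 25 and 300, no filter 449 and 919, and single libraries left out 9 to 1523 and 184 to 1798. For regions between classes (217 and 117) peak count limits gave 131 and 26, the stricter rule 644 and 646, and single libraries left out 6 to 271 and 0 to 186. For stress in regions (0 and 0) peak count limits gave 29 and 22, DESeq2 size factors 1 and 1, and single libraries left out 0 to 380 and 0 to 288. The difference in share of 19.9 points became 10.6 with at least 4 markers, 12.3 with the limit of 0.2%, 7.29 without TIP2;3, 10.11 without NPF7.3, 3.44 with the stricter rule, 4.65 after thinning and 0.859 after thinning with 10 markers, and ran 17.6 to 22.3 with single libraries left out. The cause was not tested. The stricter rule and thinning with 10 markers were chosen after seeing the data.

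The replicate numbers did not pair the libraries (correlation of deviations 0.043). With the replicate block 203 genes were higher in the interaction and 92 and 94 regions were called between stress and control, and for RNA 598 and 1082 genes were called between stress and control.

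Over the alternatives, values of named genes and regions kept their direction and side of the threshold 1327 times and lost the call 226 times, of which 46 were without stress replicate 1 and 44 without stress replicate 2. AHK1's region gained a call with the stricter rule. AOC1 turned from -4.54 to 1.01 without control replicate 2 (adjusted p = 0.70, edgeR), over a range of -5.06 to 1.01 with single libraries left out. The 209 marker nuclei of control replicate 1 limit what can be called.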
